A study of Mus musculus with 6 samples.

Results

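The genes described here are those whose name on the array is Spata (spermatogenesis associated) or Tex (testis expressed) followed by a number. The selection rule left out 8 names: Spata22, Spata46, Tex11, Tex12, Tex15, Tex19.1, Tex35 and Tex101. The rule used names and no measured value. It took 33 genes, 18 of them named Spata and 15 named Tex, with 50 probes, out of 35019 genes with 55681 probes on the array. Each gene is represented by its brightest probe over all arrays that passed a filter on dim signals. Of the 33 genes, 30 passed the filter and were tested. The other 3, Spata19, Tex21 and Tex24, did not pass and have no test.

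Spata and Tex are naming series and not a protein family. Most names were given to transcripts first found in testis, and their products range from structural parts of sperm to enzymes and membrane proteins that most tissues make. In the seminiferous epithelium spermatogonia enter meiosis as spermatocytes, and meiosis yields round spermatids that elongate and build the acrosome, the condensed nucleus and the tail. Many testis-restricted genes are transcribed in spermatids, whereas others act earlier, in spermatogonia and meiotic cells.

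Whole testis was profiled 10 days after the scrotum had been heated once, to 43 °C for 20 min. One group was 3 male C57BL/6 mice, the wild type of the labels, called B6. The other group was 3 male B6.MRLc1-(D1Mit202–D1Mit403) mice, called B6.MRLc1, a congenic strain with the C57BL/6 background and a telomeric part of chromosome 1 from MRL mice, placed by the labels between 67.97 and 81.63 cM. All mice were 3 months old, were kept free of specific pathogens and were heated, and the strains differ in the whole segment and not in 1 known gene. Unheated testes were not analysed here, and the values compare heated testes of the strains only, with no response to heat among them. Each array counts as a separate mouse, since the design text names 3 mice per strain. Should arrays share a mouse, the p-values would measure only the spread between these RNA samples.

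Each sample was hybridised to a one-colour Agilent array. A level below is log2 of the processed signal divided by that array's 75th percentile, so 0 is the level of a probe brighter than 75% of the spots on its array. Levels of different probes cannot be compared. A difference is B6.MRLc1 minus B6 on this log2 scale, with its standard error (SE) from limma over 3 and 3 arrays. A gene was called when limma's p-value, adjusted by the Benjamini-Hochberg method over all 25276 genes tested, was under 0.05. Spots well above background made up 68.5% to 69.0% of the B6 arrays and 58.0%, 62.1% and 64.7% of B6.MRLc1 replicates 1, 2 and 3, and no spot was saturated. The B6 arrays lay in slide row 1 and the B6.MRLc1 arrays in slide row 2, and the effect of row and that of strain cannot be told apart. Markers of Sertoli cells (10 of 10), spermatogonia (10 of 10) and spermatocytes (12 of 12) passed the filter, and 1 of 6 epididymis markers did.

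Most Spata and Tex genes were measured at nearly the same level in both strains, and a few were much lower in B6.MRLc1. Limma called 3 of the 30 tested genes lower in B6.MRLc1, namely Spata21, Tex22 and Spata4, and none higher, with 9 genes lower and 1 higher at an unadjusted p under 0.05. Over all genes tested 2.63% were called, 2.22% lower and 0.404% higher, and 11.1% and 9.14% had an unadjusted p under 0.05 in these directions. Without B6 replicates 1, 2 or 3, or without B6.MRLc1 replicate 2, limma called 0 of the 30 genes, without B6.MRLc1 replicate 1 it called 1 lower, Tex22, and without B6.MRLc1 replicate 3 it called 4 lower, Spata20, Spata21, Spata3 and Tex22. The median difference of the 30 genes was -0.11, against 0.02 over all genes tested, and the differences ran from -3.20 to 0.36. A set of 19 genes lay within 0.2 of 0, whereas 7 lay below -1, where 3.17% of all genes tested lay, and 3 did with normexp, a background model described below. All 7 passed the filter through their B6 arrays, and the filter keeps genes that are high in 1 strain alone, so the count and the median describe the tested genes and support nothing further. In 10 of the 30 genes every B6.MRLc1 array was below every B6 array, which held for 13.8% of all genes tested, and in 3 genes, Spata13, Spata2 and Tex10, the order was reversed, as for 14.8% of all. The sample was whole testis, so fewer cells of a type and less RNA per cell cannot be told apart.

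**Figure D1:**
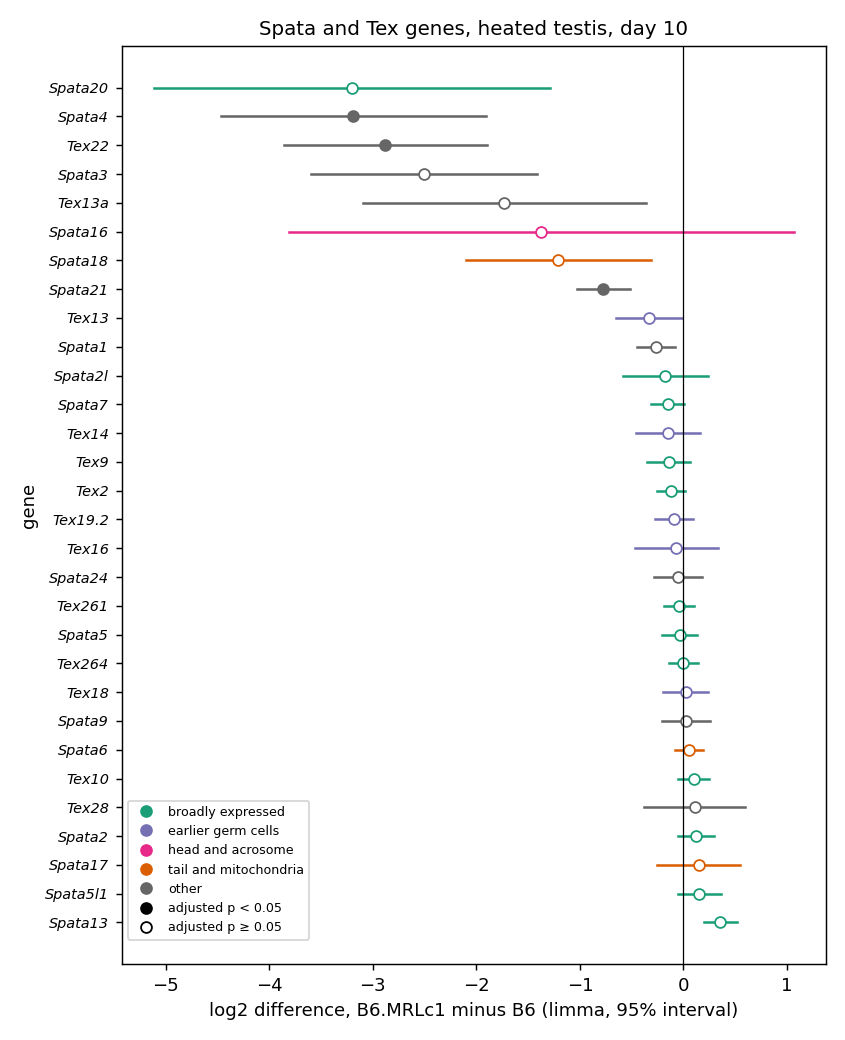
Log2 difference between the strains, B6.MRLc1 minus B6, for the 30 tested Spata and Tex genes, with limma's 95% interval without adjustment, from 3 arrays in each strain. Filled circles mark the 3 genes called at an adjusted p under 0.05 and colours mark the role lists. Genes from Spata20 at -3.20 to Spata21 at -0.77 lie to the left, and 19 genes lie within 0.2 of 0.

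The 7 genes below -1 were Spata20, Spata4, Tex22, Spata3, Tex13a, Spata16 and Spata18. All 7 failed to stand well above background on at least 1 B6.MRLc1 array, and all 7 stood above it on every B6 array. The lowest level above background was -5.68, -5.76 and -5.70 on the B6 arrays and -4.49, -5.01 and -5.31 on the B6.MRLc1 arrays. Tex28, with means of -4.61 in B6 and -4.50 in B6.MRLc1, stood above it on 3 and 1 arrays. Fewer arrays above background in B6.MRLc1 thus do not by themselves show a lower level. Conversely, 21 of the tested genes were well above background on all 6 arrays. Their differences ran from -0.77 to 0.36 with a median of -0.053, and 1 of them, Spata21, was called. For Tex22, Spata20, Spata16, Spata3 and Tex13a at most 1 B6.MRLc1 array stood above background. Spata4 and Spata18 stood above it on 2. Raising dim values to a floor, each array's lowest level above background, left their differences at -3.19 and -1.21. None of their values lay below that floor, so this setting cannot tell how far the background matters for them. With normexp their differences were -2.24 and -0.47. Each difference is given below also with normexp, a background model with an offset of 50 that compresses differences of dim probes.

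Spata21 encodes a protein with EF-hand motifs, which bind calcium. Its probe (mm9, chr4:140668613-140668672) was well above background on every array. The levels were 2.12, 2.03 and 1.92 on the B6 arrays and 1.06, 1.29 and 1.39 on the B6.MRLc1 arrays. The groups did not overlap, and the lowest B6 array lay clearly above the highest B6.MRLc1 array. The difference was -0.77 (SE 0.10, limma adjusted p = 0.0314), a mean 1.71-fold higher in B6. It was -0.78 with the second probe of the gene and -0.76 with normexp. The call remained without B6.MRLc1 replicate 3 (limma adjusted p = 0.0498) and was lost in the other 5 fits that left out 1 array, with limma adjusted p-values of 0.101, 0.107 and 0.0511 without B6 replicates 1, 2 and 3 and 0.0694 and 0.0877 without B6.MRLc1 replicates 1 and 2. It was also lost without the filter on dim probes (limma adjusted p = 0.0691), in a range of 0.00932 to 0.132 over all alternatives.

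Spata4 is a testis-enriched gene (probe at chr8:55695323-55695382, mm9). The levels were 0.39, -0.73 and -0.03 in B6 and -4.32, -3.04 and -2.57 in B6.MRLc1. Every B6.MRLc1 array lay far below every B6 array, and replicate 1 of B6.MRLc1 was the lowest. The difference was -3.19 (SE 0.52, limma adjusted p = 0.0440), and -2.24 with normexp. The probe was well above background on 2 of the 3 B6.MRLc1 arrays. The call was lost in each of the 6 fits that left out 1 array, with limma adjusted p-values from 0.0583 without B6.MRLc1 replicate 3 to 0.131 without B6 replicate 1, and differences from -3.56 to -2.68. It was also lost without the filter on dim probes (limma adjusted p = 0.0824), in a range of 0.0130 to 0.144 over all alternatives.

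Tex22 is a testis-expressed gene by name (probe at chr12:114327068-114327125, mm9). The levels were -2.24, -2.77 and -2.41 in B6 and -6.22, -5.14 and -4.71 in B6.MRLc1. The groups were far apart, but the probe was well above background on 1 of the 3 B6.MRLc1 arrays, and the second probe of the gene was above it on no array. The difference was -2.88 (SE 0.40, limma adjusted p = 0.0329) and -1.09 with normexp, so its size depends on how the background is treated. The call remained without B6.MRLc1 replicate 1 (limma adjusted p = 0.0398) and without B6.MRLc1 replicate 3 (limma adjusted p = 0.0424). It was lost without B6 replicates 1, 2 and 3 (limma adjusted p = 0.111, 0.0925 and 0.0665) and without B6.MRLc1 replicate 2 (limma adjusted p = 0.0876). It was also lost without the filter on dim probes (limma adjusted p = 0.0691), in a range of 0.00878 to 0.119 over all alternatives.

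**Figure D2:**
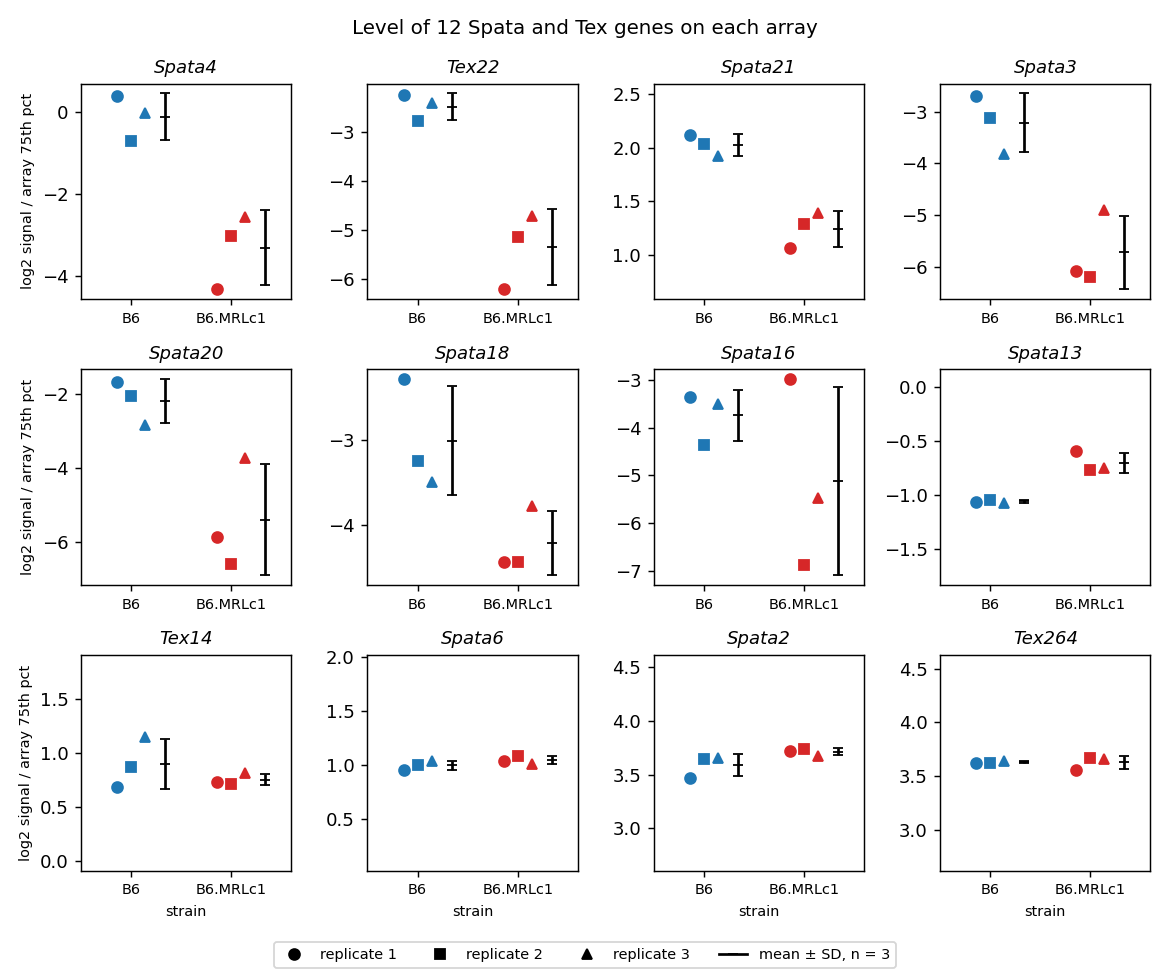
Level of 12 Spata and Tex genes on each array, as log2 of the signal divided by the array's 75th percentile, with each panel on its own axis of at least 2 log2 units. Symbols mark replicates 1 to 3, bars the mean and SD of 3 arrays. The strains separate widely for Spata4, Tex22, Spata3 and Spata20, overlap for Spata16, and coincide at 3.63 for Tex264.

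The sequences around the starts of the genes were searched for short motifs. In the RefSeq promoter table (GRCm38.p6, 250 bases before to 50 after each start) 27 of the 33 genes had an entry, with 32 promoters, and Tex22 had none. A pair of motifs used by testis regulators was searched on both strands, TGACGTCA, the palindromic cAMP response element bound by CREM and CREB, and GTTGCCA, a half-site of the X-box bound by RFX factors. The half-site occurred in the promoter of 1 of the 27 genes, Spata4, with its first base at -6, counted from the start base as 0, and in 4.38% of all 32851 promoters, or 5.02% of the 27025 genes of the table. The response element occurred in 1 of the 27, Spata7, with its first base at -7, and in 1.79% of all promoters, or 2.03% of genes. A match is a description of letters and not a binding site. The sequences from 200 bases before to 20 bases from the start are given for both called genes with an entry, and for Spata33 and Tex33, called genes described further on that also hold the half-site, with its first base at 4 and -37. These 2 were chosen for the motif, among 7 called genes of their set, of which Spata25, Spata45, Tex48, Tex36 and Tex45 lack it. Of the 24 genes of that set with an entry 3 hold it, the other one being Spata31d1a, with its first base at -245, which was not called. Tex33 has a second promoter entry, not printed, that lacks the half-site. Capitals mark the half-site, which in the printed Tex33 sequence reads on the other strand.
Spata4 (chr8:54600581-54600800, plus strand): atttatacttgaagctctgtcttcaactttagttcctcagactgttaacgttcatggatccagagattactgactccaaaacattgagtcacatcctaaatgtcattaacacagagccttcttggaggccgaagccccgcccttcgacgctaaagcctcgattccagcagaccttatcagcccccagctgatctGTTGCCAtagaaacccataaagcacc
Spata21 (chr4:141088145-141088364, plus strand): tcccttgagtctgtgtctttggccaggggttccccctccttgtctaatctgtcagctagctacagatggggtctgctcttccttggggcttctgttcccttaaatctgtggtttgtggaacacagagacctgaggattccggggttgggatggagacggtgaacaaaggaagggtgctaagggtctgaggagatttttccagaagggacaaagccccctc
Spata33 (chr8:123212658-123212877, plus strand): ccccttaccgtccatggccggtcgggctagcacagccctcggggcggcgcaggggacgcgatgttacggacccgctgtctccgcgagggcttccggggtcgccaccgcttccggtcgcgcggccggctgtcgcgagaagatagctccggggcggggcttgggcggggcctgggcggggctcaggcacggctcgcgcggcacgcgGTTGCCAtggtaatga
Tex33 (chr15:78395893-78396112, minus strand): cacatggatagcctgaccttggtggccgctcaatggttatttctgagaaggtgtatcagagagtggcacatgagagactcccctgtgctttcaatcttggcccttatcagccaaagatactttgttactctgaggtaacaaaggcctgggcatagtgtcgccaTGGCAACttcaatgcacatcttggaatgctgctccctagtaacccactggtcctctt
The Spata4 and Spata33 sequences hold the half-site in the same orientation across or just past the start, and the Spata21 sequence holds neither motif.

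Among the genes that were not called, Spata3 (chr1:87921016-87921075, mm9) came closest. The levels were -2.70, -3.13 and -3.83 in B6 and -6.08, -6.19 and -4.90 in B6.MRLc1, without overlap. The probe was well above background on no B6.MRLc1 array. The B6 mean was 3.00-fold the lowest signal that stands above background on the B6.MRLc1 arrays, or the probe's own signal where that is higher. With dim values raised to that floor the difference was -1.58 (limma adjusted p = 0.0680), so the fold is an estimate and not a lower bound. The measured difference was -2.51 (SE 0.44, limma adjusted p = 0.0519) and -0.59 with normexp (limma adjusted p = 0.0422), in a range of 0.0223 to 0.166 over all alternatives. The second probe gave -2.20. Spata3 is on chromosome 1, as is Spata17, and their place relative to the MRL segment, which the labels give in cM, was not analysed here.

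Spata20 encodes a thioredoxin-like protein. The levels were -1.68, -2.04 and -2.84 in B6 and -5.86, -6.59 and -3.71 in B6.MRLc1. The B6.MRLc1 arrays spread widely, and replicate 3, the only one above background, was the nearest to B6. The difference of -3.20 (SE 0.78, limma adjusted p = 0.102) was not called, and it was -2.22 with dim values raised to a floor. With normexp it was -1.23 (limma adjusted p = 0.0395), a call, in a range of 0.0366 to 0.267 over all alternatives. It was -4.04 without B6.MRLc1 replicate 3 (limma adjusted p = 0.0366), and was not called in the 5 fits that left out another array.

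Tex13a, an X-linked gene, had levels of -3.96, -4.67 and -5.13 in B6 and -6.64, -7.10 and -5.21 in B6.MRLc1. It stood above background on no B6.MRLc1 array. The measured difference was -1.73 (SE 0.55, limma adjusted p = 0.167) and -0.38 with normexp. With dim values raised to a floor it was -0.32 (limma adjusted p = 0.628). That is a mean 1.25-fold higher in B6, an estimate and not a lower bound. The B6.MRLc1 replicate 3 value lay next to the lowest B6 value. Tex13, another X-linked gene of early germ cells, now called Tex13b, was well above background on all arrays. Its levels were 0.38, 0.68 and 0.85 in B6 and 0.28, 0.25 and 0.39 in B6.MRLc1, which overlap, with a difference of -0.33 (SE 0.13, limma adjusted p = 0.234).

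Among the genes named Spata or Tex on the array, those listed for the sperm head, tail or mitochondria did not behave alike, and none was called. Spata33 and Tex33, listed for tail and mitochondria but Spata or Tex by current symbol only, were called and are described further on. Spata16 encodes a protein of the Golgi and the forming acrosome, whose loss gives round-headed sperm. Its levels were -3.36, -4.36 and -3.51 in B6 and -2.98, -6.89 and -5.48 in B6.MRLc1. Replicate 1 of B6.MRLc1, the only one above background, was higher than every B6 array, and the difference of -1.37 (SE 0.99, limma adjusted p = 0.478) was within the spread, and it was -0.23 with normexp. Without that array it was -2.44 (limma adjusted p = 0.141), and over all alternatives the adjusted p ran from 0.141 to 0.769.

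Spata6 is needed for the connecting piece that joins the sperm head to the tail. Its levels were 0.95, 1.00 and 1.04 in B6 and 1.04, 1.09 and 1.01 in B6.MRLc1. The groups overlapped, and the 95% interval of the difference of 0.05 ran from -0.08 to 0.18. Spata18 encodes a regulator of mitochondrial quality, also known as MIEAP. Its levels of -2.28, -3.24 and -3.49 in B6 and -4.43, -4.43 and -3.77 in B6.MRLc1 did not overlap, and the difference was -1.21 (SE 0.36, limma adjusted p = 0.150) and -0.47 with normexp. The probe was above background on 2 B6.MRLc1 arrays, and its second probe, above it on none, gave -2.39.

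Spata17, whose product has calmodulin-binding IQ motifs, gave 0.15 with its brightest probe and -1.30 with a second kept probe that was above background on no B6.MRLc1 array. The 2 kept probes disagree in sign, and no direction is given for this gene. Spata19 encodes a mitochondrial protein of sperm and was not tested. Its levels were -4.46, -4.90 and -5.60 in B6, of which 2 stood above background, and -6.65, -6.51 and -5.75 in B6.MRLc1, of which none did. Tex21 likewise stood above background on 2 B6 arrays and on no B6.MRLc1 array, and Tex24 on no array.

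The 5 genes listed for earlier germ cells were Tex13, Tex14, Tex16, Tex18 and Tex19.2, and none of the 5 was called by limma, with Tex13 alone at an unadjusted p under 0.05. Their differences ran from -0.33 to 0.02 with a median of -0.09. Tex14 builds the intercellular bridges that keep dividing germ cells connected. Its levels were 0.69, 0.87 and 1.15 in B6 and 0.74, 0.72 and 0.81 in B6.MRLc1, which overlap, with a difference of -0.15 (95% interval -0.45 to 0.16). Tex19.2 is a paralogue of Tex19.1, a gene that restrains transposable elements in germ cells. Its levels were 3.89, 4.01 and 4.10 in B6 and 3.88, 3.89 and 3.96 in B6.MRLc1, with a difference of -0.09 (95% interval -0.27 to 0.09). The intervals allow a small reduction of these genes and not one of the size seen for Spata4.

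The 12 genes listed as broadly expressed held no limma call either, with 1 lower and 1 higher at an unadjusted p under 0.05. The differences of the 12 ran from -3.20, for Spata20 described above, to 0.36, with a median of -0.04. With Spata20 set aside after its value was seen, the other 11 ran from -0.17 to 0.36. Whether each listed gene is broadly expressed was not tested here. Spata13, also known as Asef2, encodes a guanine nucleotide exchange factor and had the largest positive difference. Its levels were -1.06, -1.05 and -1.07 in B6 and -0.60, -0.77 and -0.75 in B6.MRLc1. The B6 arrays were nearly identical and every B6.MRLc1 array was above them. The difference of 0.36 (SE 0.07, limma adjusted p = 0.0556) just missed the threshold, and it was called with normexp (0.30, limma adjusted p = 0.0395), with a variance trend (limma adjusted p = 0.0405) and with array weights (limma adjusted p = 0.0250), in a range of 0.0250 to 0.175 over all alternatives.

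Spata2 is an adaptor that brings the deubiquitinase CYLD to the linear ubiquitin ligase complex. Its levels were 3.47, 3.64 and 3.66 in B6 and 3.72, 3.74 and 3.67 in B6.MRLc1, a difference of 0.12 (95% interval -0.05 to 0.30), and its 3 probes gave 0.12, 0.07 and 0.19. Tex10, a part of a complex in ribosome production, gave 0.10 (95% interval -0.05 to 0.24). Tex264, a receptor for autophagy of the endoplasmic reticulum, had levels of 3.62, 3.63 and 3.64 in B6 and 3.56, 3.67 and 3.66 in B6.MRLc1. This was the closest match of the strains among the tested genes, with a 95% interval of the difference from -0.14 to 0.14.

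The remaining broadly expressed genes lay between these. Spata7, a protein of the photoreceptor cilium, had a difference of -0.15 (95% interval -0.31 to 0.01) without overlap of the groups. Tex2, a lipid transfer protein of the endoplasmic reticulum, had -0.12 (95% interval -0.26 to 0.02), also without overlap. Spata5 and Spata5l1, AAA ATPases of ribosome maturation, had -0.04 and 0.15, and Tex261, Tex9 and Spata2l had -0.04, -0.14 and -0.17, all with overlapping groups.

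The list that held all 3 calls was the one of genes with no role assigned, of which 9 of 11 were tested, with a median difference of -0.77. Over all genes tested 2.22% were called lower and the median was 0.02. The list is what the other lists left over, and Spata3 and Tex13a passed the filter through their B6 arrays alone. The count and the median therefore describe the tested genes and support nothing further. Beside the genes above, the list holds Spata1, with levels of 0.04, 0.00 and 0.15 in B6 and -0.29, -0.11 and -0.19 in B6.MRLc1. The groups did not overlap, and the difference was -0.27 (SE 0.07, limma adjusted p = 0.131). Spata9, Spata24 and Tex28 had differences of 0.02, -0.05 and 0.11 with overlapping groups. Of these, Tex28 was above background on 1 B6.MRLc1 array.

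Name and current symbol do not always agree on this array. A further 26 genes carry a Spata or Tex symbol in RefSeq (GRCm38.p6) but another name in the scanner tables, and so do not meet the rule; 18 of them were tested. Among the 18, limma called 7 lower and 0 higher, with 14 lower and 0 higher at an unadjusted p under 0.05. It called 0 of the 18 without the filter on dim probes and 0 with the replicate number as a block. With only probes above background on all 6 arrays it called 4 lower. The median difference of the 18 was -1.03, and in 14 of them every B6.MRLc1 array was below every B6 array. Over all genes tested 2.22% were called lower, 11.1% were lower at an unadjusted p under 0.05 and 13.8% lay lower without overlap. Spata45, Tex38 and Tex43 passed the filter through their B6 arrays alone. The counts and the median therefore describe the tested genes and support nothing further, and the difference between the sets was not tested. The 7 called genes, named after their values were seen, were Spata33, Tex45, Spata45, Spata25, Tex48, Tex36 and Tex33.

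Spata33, which anchors the phosphatase calcineurin in sperm, had the lowest adjusted p of these. Its levels were -0.01, -0.32 and -0.17 in B6 and -1.39, -1.30 and -1.18 in B6.MRLc1, a difference of -1.12 (SE 0.10, limma adjusted p = 0.0191), and -0.94 with normexp. All arrays were above background and the groups were far apart. Its probe (chr8:125745721-125745780, mm9) lies next to that of Spata2l (chr8:125756345-125756404, mm9), whose levels of -1.35, -1.34 and -1.68 in B6 and -1.40, -1.56 and -1.93 in B6.MRLc1 overlapped. The Spata33 call was lost without B6 replicate 1 (limma adjusted p = 0.0552) and without B6.MRLc1 replicates 1 and 2 (limma adjusted p = 0.0606 and 0.0610).

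Tex33 had levels of 0.11, -0.45 and -0.77 in B6 and -2.37, -2.59 and -1.83 in B6.MRLc1, a difference of -1.90 (SE 0.29, limma adjusted p = 0.0397). Spata25 had levels of -1.04, -1.97 and -2.25 in B6 and -4.00, -4.39 and -4.23 in B6.MRLc1, a difference of -2.45 (SE 0.32, limma adjusted p = 0.0301). Both were above background on all arrays, and with normexp their differences were -1.54 and -1.41. Spata45 did not stand above background in B6.MRLc1, and its B6 mean was 3.43-fold the lowest signal above background there. Its measured difference was -3.37 and, with normexp, -0.84. Spata45 is on chromosome 1 (chr1:192866761-192866820, mm9), and its place relative to the MRL segment was not analysed here. Tex48 was above background on 1 B6.MRLc1 array, with -2.77 and, with normexp, -1.47. Tex45 and Tex36 had -0.81 and -1.10 and, with normexp, -0.23 and -0.40, where neither was called (limma adjusted p = 0.121 and 0.0524). Leaving out 1 array left few calls among the 18 genes, 1, 1 and 5 without B6 replicates 1, 2 and 3 and 1, 0 and 3 without B6.MRLc1 replicates 1, 2 and 3. Members of the Spata31 family share sequence, and a probe for one may read its copies, so their values are uncertain. Spata31, Spata31d1a and Spata31d1b were tested and not called, with differences of -0.96, -0.43 and -0.25, and Spata31d1c and Spata31d1d were not tested.

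**Figure D3:**
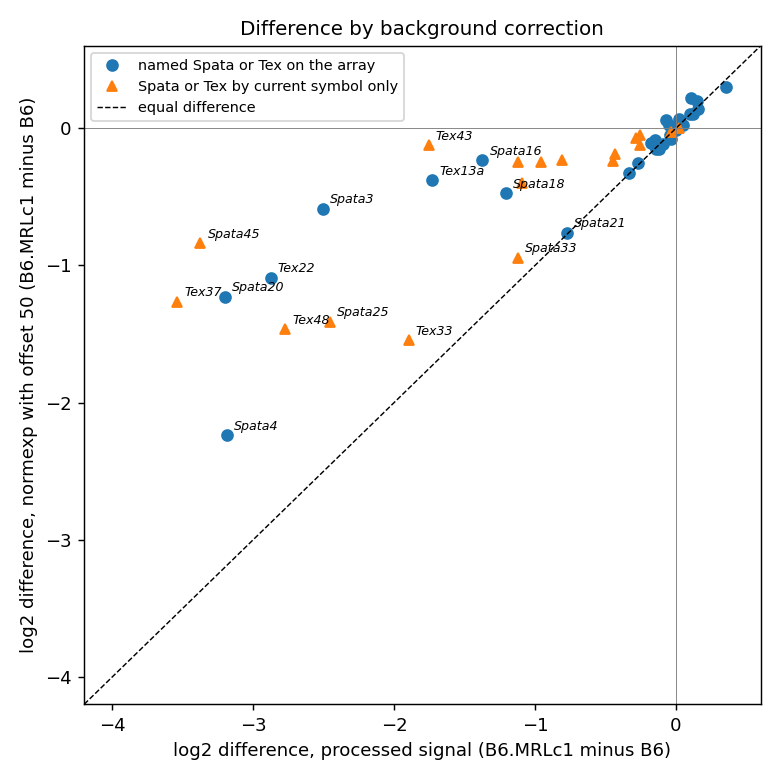
Log2 difference, B6.MRLc1 minus B6, with the processed signal (horizontal) and with normexp and an offset of 50 (vertical), for the 30 tested genes named Spata or Tex on the array (circles) and the 18 tested by current symbol only (triangles). The dashed line marks equal differences. Spata21 lies on the line, whereas Spata4 moves to -2.24 and Spata20, Tex22 and Spata3 to -1.23, -1.09 and -0.59.

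Most markers of late germ cells were lower in B6.MRLc1. Of 18 tested markers of round spermatids, limma called 8 lower in B6.MRLc1 and 0 higher, with a median difference of -1.27. Of 19 tested markers of elongating spermatids it called 2 lower and 0 higher, the median was -2.60, and all 19 lay lower on every B6.MRLc1 array than on any B6 array. Over all genes tested 2.22% were called lower and 13.8% lay lower without overlap. Some markers, such as Akap3, Cylc2 and Catsper1, passed the filter through their B6 arrays alone, whereas others, such as Prm1 and Tnp1, stood above background on every array. The counts and medians therefore describe the tested markers only. The summed linear level of the round spermatid list was 10.0, 8.43 and 9.36 in B6 and 5.88, 5.13 and 5.65 in B6.MRLc1, in units of each array's 75th percentile. That of the elongating spermatid list was 49.1, 24.9 and 16.3 in B6 and 3.17, 2.47 and 7.64 in B6.MRLc1. The part of these cells in the Spata and Tex values was not tested.

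Limma called no gene in the lists of earlier and somatic cells. At an unadjusted p under 0.05 it found 2 spermatocyte markers lower, and 2 Sertoli, 3 Leydig, 1 myoid, 1 macrophage and 4 adipocyte markers higher. Their median differences were 0.11 for 10 spermatogonial markers, -0.03 for 12 spermatocyte markers, 0.10 for 10 Sertoli markers, 0.29 for 7 Leydig markers, 0.17 for 4 peritubular myoid markers and -0.17 for 8 macrophage markers. Of 5 tested adipocyte markers the median was 1.06, and the summed level was 3.69, 5.60 and 6.12 in B6 and 6.76, 13.6 and 9.32 in B6.MRLc1. The median level of the Spata and Tex genes, as the deviation of each gene from its mean over 6 arrays, was 0.03, 0.06 and 0.12 in B6 and -0.08, -0.07 and 0.00 in B6.MRLc1. The strains were thus separated by much less than for the spermatid lists, since most of these genes lay near 0.

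**Figure D4:**
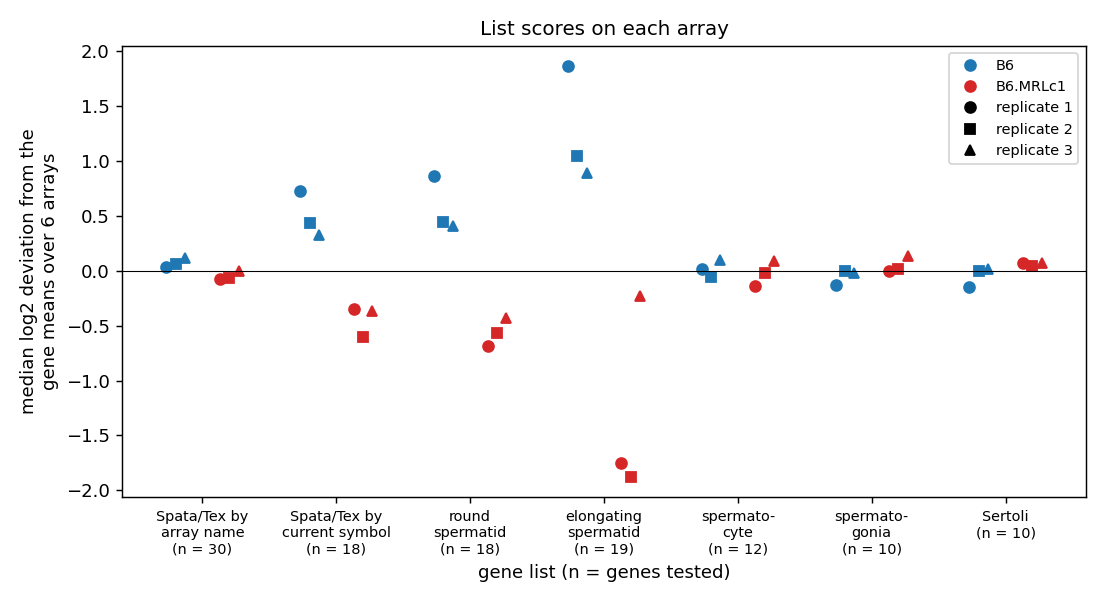
Median over the genes of a list of the log2 deviation from each gene's mean over 6 arrays, for each array of B6 (blue) and B6.MRLc1 (red), with n the genes tested. The 30 Spata and Tex genes named on the array lie between -0.08 and 0.12, whereas the elongating spermatid markers run from -1.88 to 1.86, with B6.MRLc1 replicate 3 at -0.23 nearest to B6.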

How the data were processed

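Total RNA (0.1 ug) was labelled with Cy3, per the labels' protocols. Linear intensity values make up the deposited scanner tables, background-subtracted and detrended by the authors' scanner software, per the file headers, beside flags of 0 or 1 for spots above background, saturated or outlying. The headers name Feature Extraction 10.7.3.1 and build mm9, and the submitters' processing notes version 9.5.3. The authors' deposited series table holds log2 values: at least 99.9% lay within 0.05 of the scaled signal minus each probe's centre, and it served as an alternative.

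Control and outlier spots were dropped, processed signals divided by the array's 75th percentile and log2 taken, and spots of a probe averaged. A kept probe had values on 4 or more arrays and over 0.5 of its spots well above background on 3 or more of the 6. Limma 3.58.1 (R 4.3.3) compared the strains with no covariate over 25276 genes, a step tested on simulated data. Genes were grouped through RefSeq accessions for 27235 of 55681 probes and otherwise by file name. Motifs were searched with Python 3.11.15.

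Named were all called genes, the next 8 by adjusted p and genes fixed for their function, of which Tex40 was not found. Genes and lists were chosen with earlier results of these data known. Alternatives were other background, scaling, filter, probe, variance, weight and replicate settings. Columns of samples outside the labels numbered 0.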

Additional observations from a re-analysis of the deposited data

How the results depend on the processing

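In the main fit limma called 3 genes lower and 0 higher among the Spata and Tex genes, and 562 lower and 102 higher over all genes. Against these, normexp called 5 and 1 (all genes 611 and 278), a variance trend 5 and 1 (874 and 328), and array weights 4 and 1 (1435 and 880). Without a filter on dim probes limma called 0 (9 lower at an unadjusted p under 0.05; all genes 38 and 12), and with only probes above background on all 6 arrays it called 1, with a median of -0.053. Raising dim values to a floor gave 372 genes lower over all, and the deposited log2 values 349. With the replicate block limma called 0 of the Spata and Tex genes and 0 lower and 0 higher over all, with 8 of them lower and 4866 genes in all at an unadjusted p under 0.05. Deviations of samples with the same number correlated at -0.04, 0.17 and 0.09 for replicates 1, 2 and 3. The highest correlations with another number were 0.02, -0.04 and 0.07. The replicate number is also the slide column in both strains. The main fit did not take the numbers as pairs, and these correlations do not exclude an effect shared by a number. Leaving out 1 array gave 0 to 4 of the Spata and Tex genes lower, medians from -0.14 to -0.06, and 42 to 400 genes lower and 7 to 86 higher over all. Spata21 kept its sign in 17 of 17 alternatives and was called in 10, Spata4 in 16 of 16 and 8, and Tex22 in 15 of 15 and 9. Tex264, near 0, changed sign with array weights (0.015) and ran from -0.022 to 0.037 when 1 array was left out. The cause of these changes was not tested. With 3 arrays a strain, and B6.MRLc1 signals near background for most of the largest differences, precision is limited.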
